A study of Mus musculus with 6 samples.

Results

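The miRNAs described here are those made without Drosha, the nuclear enzyme that releases most miRNA hairpins from their primary transcripts. They were taken by name from the miRNA table, as miR-320-3p and miR-484, which come from capped hairpins, and miR-877-5p, miR-877-3p, miR-1224-5p and miR-702-3p, which come from mirtrons, with earlier results of these data known. These are 6 of the 1506 miRNAs in the table. miR-320-5p, which the same choice names, was not analysed here. Small RNA libraries had been made from oligodendrocyte progenitor cells (OPCs), the cells that mature into myelin-forming oligodendrocytes. The cells were cultured from the cerebral cortex of newborn wild-type C57BL/6 pups, and 3 libraries came from fibrinogen-treated OPCs and 3 from control OPCs. Fibrinogen, a clotting protein of blood plasma, was given at 2.5 mg per mL, while the study's methods describe a vehicle for control OPCs. The duration of treatment is not given in the sources used here. The libraries of each group are numbered by mouse, but whether each came from a separate culture is not stated, so p-values measure only the spread between these libraries.

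A canonical miRNA is cut out of a long primary transcript by Drosha and then trimmed by Dicer in the cytoplasm. Capped hairpins such as those of miR-320 and miR-484 bypass Drosha because transcription itself starts at the 5′ end of the hairpin and stops at its 3′ end. In the miR-320 hairpin the cap then hinders loading of the 5p arm into Argonaute, so that miR-320 is known mainly as its 3p arm. The annotated mature miR-484, by contrast, lies on the 5′ side of its hairpin. A mirtron is a short intron whose ends are set by the spliceosome. After splicing and debranching the intron folds into a hairpin that Dicer can use. Both groups of miRNAs still need Dicer, so their production shares later steps of the canonical route but not the Drosha step.

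The mature sequences of these miRNAs were taken from RefSeq (GRCm38.p6), which held 5 of the 6. They are shown 5′ to 3′ because the mirtron arms begin or end at splice sites, and the seed, bases 2 to 8, which pairs with target mRNAs, is in capitals.
miR-484: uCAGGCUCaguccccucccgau
miR-877-5p: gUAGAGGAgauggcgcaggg
miR-877-3p: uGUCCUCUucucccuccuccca
miR-1224-5p: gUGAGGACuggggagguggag
miR-702-3p: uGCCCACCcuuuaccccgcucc
No other miRNA of the table with a RefSeq sequence had the seed of any of these 5, and each of the 5 had 1 precursor in RefSeq, so that none of their levels is multiplied by several precursors.

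The mirtron hairpins are printed next, 5′ to 3′, with the first 2 and the last 2 bases of the intron in capitals, because these bases show where splicing sets the ends of the hairpin.
Mir877, chr17:35960730-35960814, minus strand: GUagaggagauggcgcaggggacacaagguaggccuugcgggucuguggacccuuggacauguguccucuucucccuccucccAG
Mir1224, chr16:20604452-20604536, plus strand: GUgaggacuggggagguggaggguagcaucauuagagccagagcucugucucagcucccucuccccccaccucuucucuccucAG
Mir702, chr5:136991433-136991541, plus strand: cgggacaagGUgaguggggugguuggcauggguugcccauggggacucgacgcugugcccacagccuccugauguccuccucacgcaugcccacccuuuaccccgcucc
These positions are on GRCm38.p6. Against the gene models of GENCODE M39 on GRCm39, the Mir877 and Mir1224 hairpins each covered 1 whole intron of 85 bases, in Abcf1, a gene of translation initiation, and in Vwa5b2. Mir702 lies in an intron of 102 bases of Plod3, which encodes a collagen-modifying enzyme. Its hairpin starts 9 bases before the intron, in the exon, and ends 2 bases before the end of the intron, so that the last 2 bases of the intron lie outside it and are not shown. miR-877-5p and miR-1224-5p begin at the first base of their introns, the GU of the 5′ splice site, and miR-702-5p, the other arm of miR-702, does so too. miR-877-3p ends 1 base and miR-702-3p 2 bases before the end of the intron, and miR-1224-3p, the other arm of miR-1224, ends at its last base. Mir484 is of another kind. Its hairpin lies on the plus strand, at chr16:14159626-14159692 on GRCm38.p6 and at chr16:13977490-13977556 on GRCm39. In GENCODE M39 the hairpin overlaps an exon of the long non-coding RNA Gm60486 on the same strand. It starts 328 bases after the annotated start of Gm60486, and where its transcription starts in these cells was not tested. On the opposite strand it overlaps both exonic and intronic sequence of Marf1. The mature arm of Mir484 begins after the first 4 bases of the annotated hairpin.

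Levels are given in the unit that the table calls TPM, in which reads were divided by the library total without regard to length. Each read added 0.0669 to 0.0841 TPM to its miRNA, which allowed the read numbers to be worked out, and the libraries held 11897645 to 14847034 miRNA reads. Fold changes were taken of TPM + 1 on the log2 scale, where those of rare miRNAs come out too small. The test was limma over the 607 miRNAs that reached 1 TPM in 3 or more libraries, with Benjamini-Hochberg adjustment over all of them. Of the 6 miRNAs, 4 had this minimum level and were tested. With 3 libraries in each group, the exact permutation test, used in its two-sided form, cannot go below p = 0.1. The cultures held the oligodendrocyte miRNAs miR-219a-5p, miR-219a-2-3p and miR-338-3p. Their sum was 2625 to 4203 TPM in fibrinogen-treated OPCs and 3496 to 3682 TPM in control OPCs. Within it, miR-219a-2-3p ran from 462 to 695 TPM in fibrinogen-treated OPCs and from 222 to 359 TPM in control OPCs. The ranges of miR-219a-5p and miR-338-3p overlapped between the groups. Markers of other cell types were also present. The neuronal miR-124-3p and miR-128-3p summed to 67767 to 70759 TPM in fibrinogen-treated OPCs and 84040 to 91832 TPM in control OPCs. The ranges of miR-124-3p overlapped, at 22173.2 to 26296.5 TPM in fibrinogen-treated OPCs and 22056.1 to 31833.1 TPM in control OPCs. Those of miR-128-3p did not, at 41470.1 to 48585.8 TPM and 59516.3 to 69465.7 TPM in these groups. The endothelial miR-126a-3p was at 8505 to 10441 TPM in fibrinogen-treated OPCs and 8231 to 10625 TPM in control OPCs.

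None of the 4 tested miRNAs passed at an adjusted p under 0.05, while all 4 had a log2 fold change above 0, from 0.58 to 1.05 with a median of 0.78. Over all 607 miRNAs the median was 0.125 and 62.9% were above 0. Of all miRNAs tested, 2.14% were higher and 0.659% were lower in fibrinogen-treated OPCs at an adjusted p under 0.05. Nor did any of them pass with edgeR's exact test, edgeR's quasi-likelihood test or DESeq2 on the recovered reads, which called 1.98%, 1.32% and 4.45% of the miRNAs higher. At an unadjusted p under 0.05, 2 of the 4, miR-320-3p and miR-484, were past the threshold, beside 20.1% of all tested miRNAs that were higher and 5.6% that were lower at this p. For the same 2 of the 4 all 3 fibrinogen-treated libraries were above all 3 control libraries, which held for 24.4% of all miRNAs tested.

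**Figure D1:**
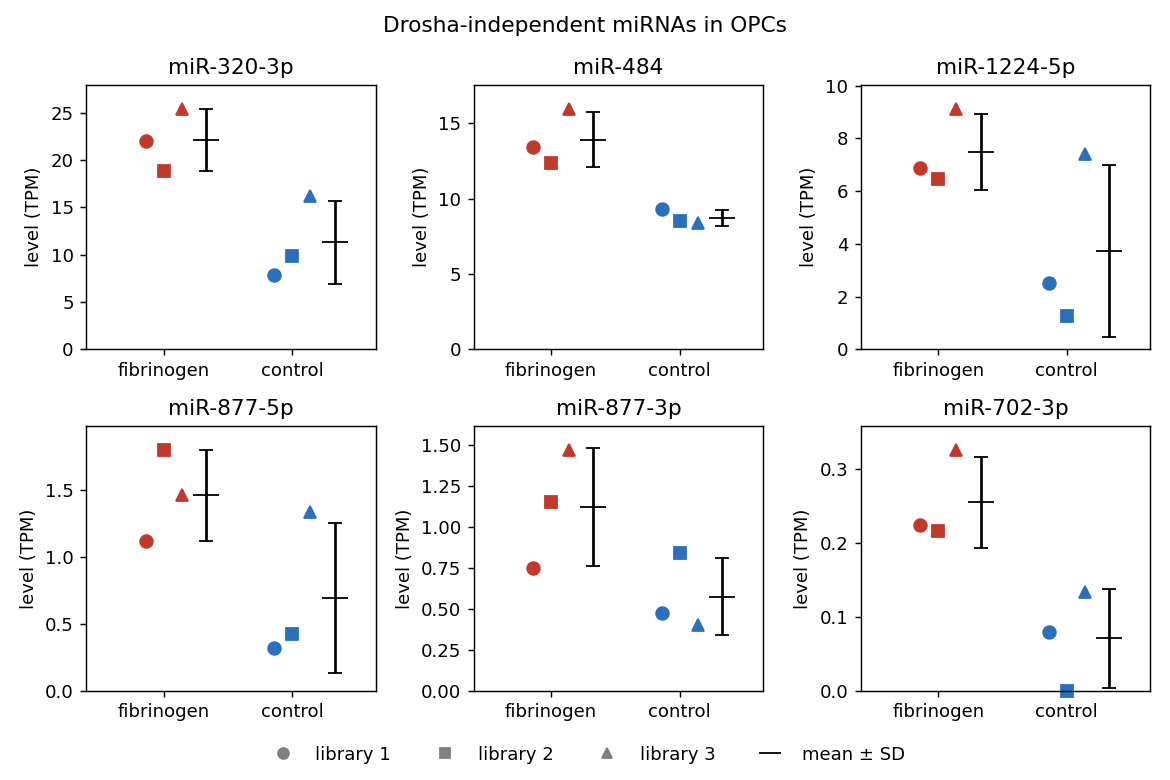
Level in TPM of each of the 6 Drosha-independent miRNAs in fibrinogen-treated OPCs (left) and control OPCs (right), 1 point for each library, with the mean and SD over 3 libraries beside the points. The groups do not overlap for miR-320-3p, miR-484 and miR-702-3p, and control library 3 lies near the fibrinogen-treated libraries for miR-1224-5p and miR-877-5p.

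The capped hairpins gave the highest levels of the group. miR-320-3p, the dominant arm of the miR-320 hairpin, had 22.0, 18.8 and 25.4 TPM in fibrinogen-treated OPCs and 7.84, 9.84 and 16.3 TPM in control OPCs. The groups did not overlap, and control library 3 was the highest of the control libraries. The means were 22.1 ± 3.28 TPM in fibrinogen-treated OPCs and 11.3 ± 4.39 TPM in control OPCs (SD, n = 3 each), a ratio of 1.95. Its log2 fold change was 0.96 (standard error 0.27, 95% interval 0.31 to 1.60, unadjusted p = 0.00957, adjusted p = 0.108 from limma), and the exact permutation test gave p = 0.1, the smallest possible. Without control library 3 the log2 fold change was 1.23 (adjusted p = 0.0252 from limma), in a fit in which 39 miRNAs of the table were higher instead of 13. In all, 23 of the 607 miRNAs had a fold change at least as high as that of miR-320-3p, itself included.

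miR-484, known in heart muscle as a regulator of mitochondrial fission, had 13.4, 12.4 and 16.0 TPM in fibrinogen-treated OPCs and 9.34, 8.49 and 8.36 TPM in control OPCs. Here too the groups did not overlap, but control library 3 was the lowest of the control libraries, unlike for miR-320-3p. The means were 13.9 ± 1.84 TPM in fibrinogen-treated OPCs and 8.73 ± 0.534 TPM in control OPCs (SD, n = 3 each), a ratio of 1.59. Its log2 fold change was 0.61 (standard error 0.17, 95% interval 0.21 to 1.01, unadjusted p = 0.00809, adjusted p = 0.101 from limma; exact permutation p = 0.1). This standard error was the smallest of the 4 tested miRNAs. No fit without 1 library passed, and the adjusted p ran from 0.118 to 0.329 when each library was left out in turn.

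The most abundant mirtron product of the group was miR-1224-5p, the arm that starts at the 5′ splice site of its intron in Vwa5b2. It had 6.87, 6.47 and 9.12 TPM in fibrinogen-treated OPCs and 2.53, 1.26 and 7.42 TPM in control OPCs. The groups overlapped, because control library 3 was above fibrinogen-treated libraries 1 and 2. These levels stood for 92, 90 and 112 reads in fibrinogen-treated OPCs and 32, 15 and 111 reads in control OPCs. The log2 fold change of TPM + 1 was 1.05, the largest of the 4 tested miRNAs on this scale but not as a ratio of means, which was 2.0 for miR-1224-5p and 2.11 for miR-877-5p. Its error was the widest (standard error 0.46, 95% interval -0.02 to 2.12, unadjusted p = 0.0542, adjusted p = 0.199 from limma; exact permutation p = 0.3). Without control library 3 it was 1.57 (adjusted p = 0.0252 from limma, in the fit with 39 miRNAs higher), and without control library 2 it was 0.62 (adjusted p = 0.387). Over all 6 libraries the difference of the means, 7.48 ± 1.43 TPM in fibrinogen-treated OPCs and 3.74 ± 3.25 TPM in control OPCs (SD, n = 3 each), was smaller than the distance between the lowest and the highest control library, at 1.26 and 7.42 TPM.

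miR-877-5p, which starts at the 5′ splice site of its Abcf1 intron, had 1.12, 1.80 and 1.47 TPM in fibrinogen-treated OPCs and 0.317, 0.421 and 1.34 TPM in control OPCs. Control libraries 1 and 2 were low, at 4 and 5 reads, and control library 3, at 20 reads, was within the range of the fibrinogen-treated libraries. The log2 fold change was 0.58 (standard error 0.26, 95% interval -0.03 to 1.19, unadjusted p = 0.0588, adjusted p = 0.206 from limma; exact permutation p = 0.2). Without control library 3 it was 0.84 (adjusted p = 0.0539 from limma), but in that fit only fibrinogen-treated libraries reached 1 TPM. There miR-877-5p met the minimum level only through the group where it was high. With each library left out in turn, its log2 fold change ran from 0.42 to 0.84. No such fit passed (adjusted p = 0.0539 to 0.419 from limma). The opposite arm, miR-877-3p, was below the minimum level for the test, with 0.747, 1.15 and 1.47 TPM in fibrinogen-treated OPCs and 0.475, 0.841 and 0.401 TPM in control OPCs. For this arm control library 3 was the lowest control library, and control library 2 was above fibrinogen-treated library 1 (exact permutation test, p = 0.2).

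The arms of the miR-877 hairpin were used almost evenly. Pooled over the libraries of a group, 58 of 102 reads were miR-877-5p in fibrinogen-treated OPCs and 29 of 51 reads in control OPCs, which is 56.9% in both. The Wilson 95% intervals were 47.2% to 66.1% in fibrinogen-treated OPCs and 43.3% to 69.5% in control OPCs. Single libraries ran from 50.0% to 61.0% in fibrinogen-treated OPCs and from 33.3% to 76.9% in control OPCs, with the highest share in control library 3, and at these read numbers no difference in arm use could be seen. The miR-1224 hairpin was used from 1 side. miR-1224-5p took 294 of 304 reads, or 96.7% (Wilson 95% interval 94.1% to 98.2%), in fibrinogen-treated OPCs and 158 of 168 reads, or 94.0% (89.4% to 96.7%), in control OPCs. Such intervals cover counting error only. No miR-877, miR-1224 or miR-702 pair had both arms past the minimum level, so arm ratios were not tested between the groups.

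miR-702-3p was the rarest of the 6, with 3, 3 and 4 reads in fibrinogen-treated OPCs and 1, 0 and 2 reads in control OPCs. These are 0.224, 0.216 and 0.326 TPM in fibrinogen-treated OPCs, and 0.0792, 0 and 0.134 TPM in control OPCs. The libraries did not overlap (exact permutation p = 0.1), but a count of 0 allows up to 3 reads in a library, 0.252 TPM in control library 2. With reads pooled over each group and set against the pooled totals, the ratio of fibrinogen-treated to control OPCs was 3.39, with a 95% counting interval of 0.874 to 19.2 that includes 1. The same pooled ratio was 2.04 for miR-877-5p (1.28 to 3.30), 2.04 for miR-877-3p (1.19 to 3.57) and 1.89 for miR-1224-5p (1.56 to 2.31). These intervals leave out the differences between libraries, which for miR-1224-5p were larger than the counting error. For miR-877-5p too the control libraries lay far apart, at 4, 5 and 20 reads. The limma fit, which takes in the spread between libraries, gave it an unadjusted p = 0.0588.

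The 6 arms of miR-877, miR-1224 and miR-702 were also added up in each library. Together they had 9.33, 10.2 and 12.5 TPM in fibrinogen-treated OPCs, from 125, 142 and 153 reads. In control OPCs they had 3.64, 2.86 and 9.56 TPM, from 46, 34 and 143 reads. Control library 3 was thus above fibrinogen-treated library 1, and control libraries 1 and 2 were below all others.

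**Figure D2:**
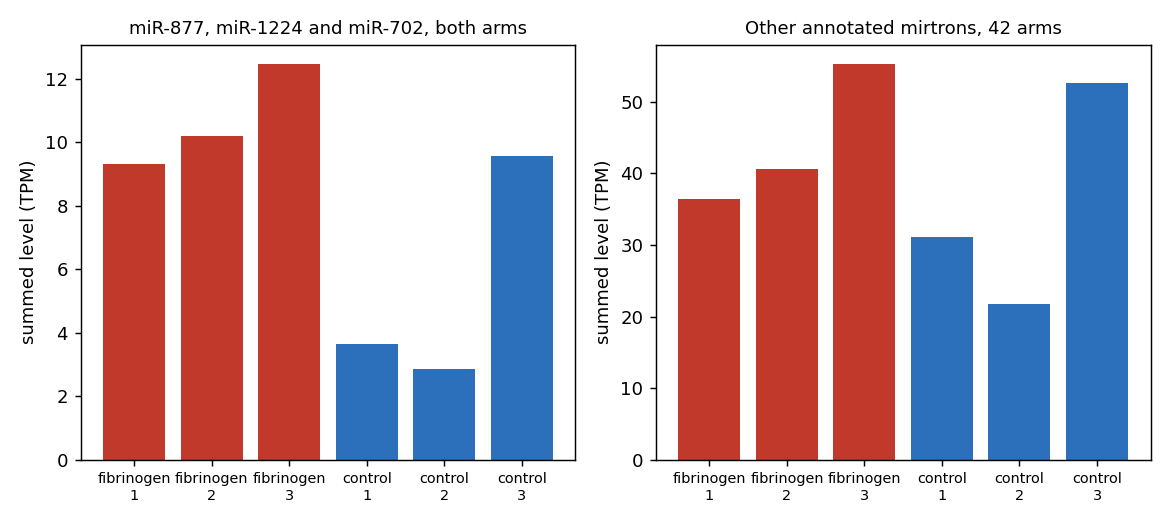
Summed level in TPM of the 6 arms of miR-877, miR-1224 and miR-702 (left panel) and of 42 arms of other annotated mirtrons (right panel), 1 bar for each library, fibrinogen-treated OPCs in red and control OPCs in blue. In both panels control library 3, at 9.56 and 52.6 TPM, lies within the range of the fibrinogen-treated libraries.

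Other miRNAs placed like mirtrons were described beside these, by position only, and whether they are made without Drosha was not tested. Hairpins of the table that cover a whole intron of GENCODE M39 to within 15 bases at both ends gave 42 further arms from 26 precursors, of which 4 arms had the minimum level and 38 did not, with a mean of at most 0.792 TPM. None of the 4 passed. The most abundant, miR-1981-5p, from an intron of Mtarc2, had 21.1, 20.9 and 31.3 TPM in fibrinogen-treated OPCs and 17.7, 9.76 and 34.5 TPM in control OPCs, with control library 3 the highest of all libraries. Its log2 fold change was 0.38 (95% interval -0.61 to 1.37, adjusted p = 0.584 from limma). miR-3102-3p, from an intron of Arhgef17, had 4.18, 5.61 and 7.41 TPM in fibrinogen-treated OPCs and 2.38, 1.43 and 5.68 TPM in control OPCs, again with control library 3 among the fibrinogen-treated ones (log2 fold change 0.80, adjusted p = 0.236). The log2 fold changes were 0.18 for miR-1981-3p and 0.03 for miR-6944-3p. All 42 arms together had 36.4, 40.6 and 55.2 TPM in fibrinogen-treated OPCs and 31.1, 21.8 and 52.6 TPM in control OPCs.

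Drosha-independent miRNAs of other origins were also in the table, and none of the 3 tested passed. miR-1839-5p, which is cut from a small Cajal body RNA, had 404, 359 and 445 TPM in fibrinogen-treated OPCs and 371, 291 and 352 TPM in control OPCs, and the groups overlapped (log2 fold change 0.25, adjusted p = 0.307 from limma). miR-1839-3p had a log2 fold change of 0.08. miR-1983, which comes from a tRNA gene, had 46.4, 45.9 and 40.8 TPM in fibrinogen-treated OPCs and 46.5, 58.8 and 47.2 TPM in control OPCs. Its log2 fold change was -0.19 (95% interval -0.55 to 0.18, adjusted p = 0.462 from limma). The groups did not overlap, with fibrinogen-treated OPCs lower, as for 8.73% of all miRNAs tested. The nearest libraries were almost equal, at 46.43 TPM (fibrinogen-treated library 1) and 46.48 TPM (control library 1). Whether these miRNAs differ in their response from those made of capped hairpins or mirtrons was not tested.

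**Figure D3:**
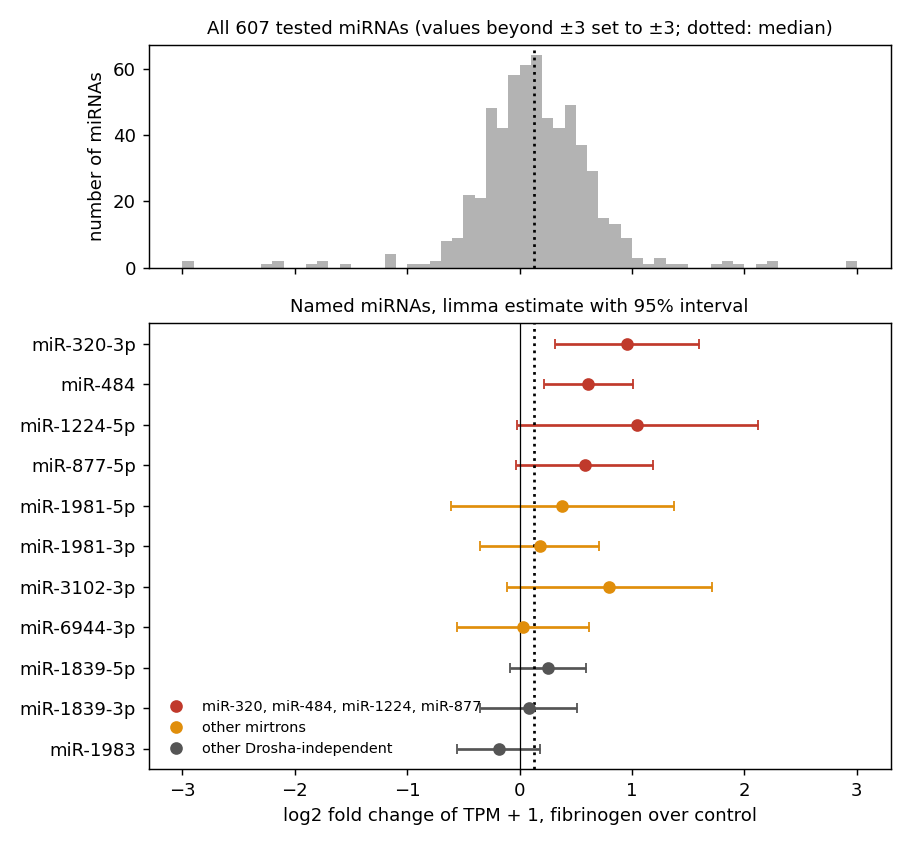
Log2 fold change of TPM + 1 of fibrinogen-treated over control OPCs, for all 607 tested miRNAs as a histogram (top). Points with the 95% interval from limma (bottom) are the tested members, other mirtrons by position, miR-1839 and miR-1983. The dotted line is the median of all tested miRNAs. The intervals of miR-320-3p and miR-484 lie above 0, and those of the other named miRNAs include 0.

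The precursors of these miRNAs are rich in G and C, apart from that of miR-320-3p, which RefSeq did not give. Most miRNAs of the table with precursors as GC-rich as these also had fold changes above 0. RefSeq gave a precursor for 417 of the 514 known miRNAs tested, or 81.1%, with a median GC content of 48.7% and a median log2 fold change of 0.12. The GC content was 58.2% for Mir484, 60.0% for Mir1224, 61.2% for Mir877 and 65.1% for Mir702. Of the 417, 86.1% had a lower GC content than Mir484 and 96.2% a lower one than Mir702. Among miRNAs within 5 percentage points of Mir484, 93 of 116 had a log2 fold change above 0, with a median of 0.27, against 0.61 for miR-484. Of all 607 miRNAs tested, 62.9% were above 0. Those around Mir1224 had a median of 0.27, against 1.05 for miR-1224-5p, and those around Mir877 a median of 0.34, against 0.58 for miR-877-5p. The trend with GC content differed between the libraries, as described by slopes that were not tested. For each 10 percentage points of GC content, levels relative to the other libraries moved by 0.057, 0.065 and 0.157 on the log2 scale in fibrinogen-treated OPCs and by -0.075, -0.175 and -0.029 in control OPCs, with control library 3 the nearest to the fibrinogen-treated ones. With this trend taken out of each library by a linear fit, the log2 fold changes were 0.44 for miR-484 (adjusted p = 0.17 from limma), 0.85 for miR-1224-5p (adjusted p = 0.209) and 0.36 for miR-877-5p (adjusted p = 0.316). Such a correction also takes out any response to fibrinogen that follows GC content, and GC content and treatment cannot be told apart as sources of this trend.

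**Figure D4:**
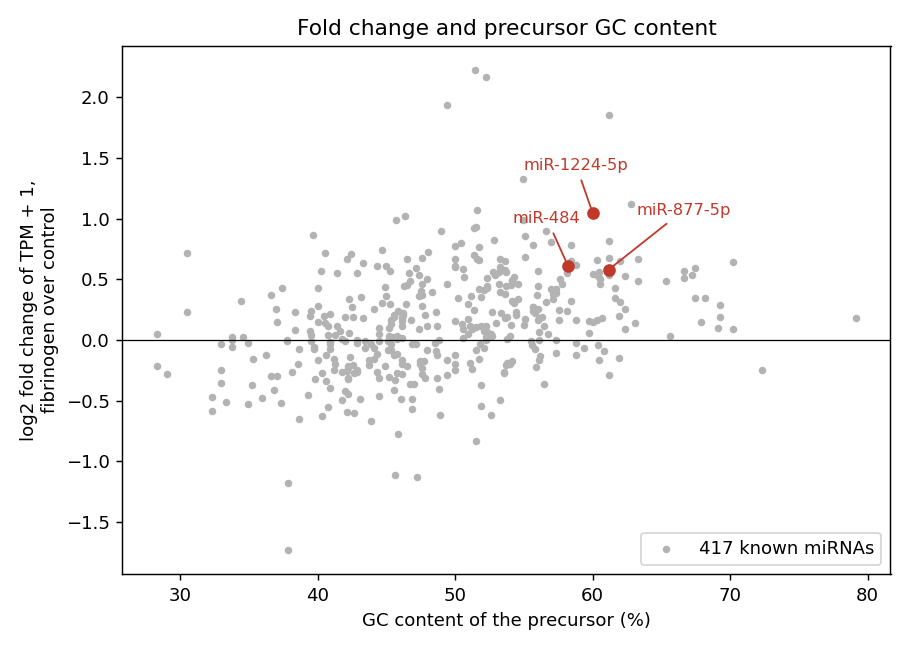
Log2 fold change of TPM + 1 of fibrinogen-treated over control OPCs (vertical axis) against the GC content of the precursor in % (horizontal axis), 1 point for each of 417 known miRNAs, with miR-484, miR-1224-5p and miR-877-5p in red. The 3 miRNAs lie in the GC-rich part of the plot, at 58.2% to 61.2%, where most points are above 0.

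Markers of other cells differed between the groups in some cases. Of the 14 markers looked at, only the neuronal miR-128-3p passed at an adjusted p under 0.05 (log2 fold change -0.49, adjusted p = 0.041 from limma). The red blood cell miRNAs miR-451a and miR-144-3p summed to 121 to 138 TPM in fibrinogen-treated OPCs and 149 to 567 TPM in control OPCs, and 1 of the 2, miR-144-3p, was lower in all fibrinogen-treated libraries than in any control library, which held for 8.73% of all miRNAs tested. The immune miRNAs miR-142a-5p, miR-142a-3p and miR-223-3p summed to 954 to 1188 TPM and 1207 to 1863 TPM in these groups. The sum of miR-143-3p, miR-145a-5p and miR-199a-3p, of fibroblasts and mural cells, was 3160 to 4291 TPM in fibrinogen-treated OPCs and 2405 to 2990 TPM in control OPCs. Like miR-144-3p, miR-142a-3p and miR-128-3p were lower in all fibrinogen-treated libraries than in any control library. Both miR-143-3p and the oligodendrocyte miR-219a-2-3p were higher in all of them, which held for 24.4% of all miRNAs tested. The ranges of the other markers overlapped. None of the 14 markers was at 0 in any library. Outside these 14, other miRNAs of red blood cells and immune cells went both ways, and none of those given next passed. For red blood cells the log2 fold changes were 0.20 for both miR-486a-5p and miR-486b-5p and -1.18 for miR-144-5p. For immune cells they were 0.70 for miR-150-5p, 0.43 for miR-146a-5p and -0.49 for miR-155-5p. In cultures measured as a whole, more cells of a type and more RNA per cell cannot be told apart, and the part of these cells in the levels of miR-320-3p, miR-484 and the mirtrons was not tested.

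The miRNAs with the pattern most like each capped-hairpin miRNA over the 6 libraries were looked up among 333 known miRNAs whose mean reached 10 TPM. For miR-320-3p these were miR-700-3p, miR-342-5p and miR-326-3p, with Pearson correlations of log2(TPM + 1) of 0.98, 0.98 and 0.97. For miR-484 they were let-7i-5p, miR-540-3p and miR-671-5p, with 0.99, 0.99 and 0.99. Between miR-320-3p and miR-484 the correlation was lower, at 0.80 (Spearman 0.77), and control library 3 was the highest control library for miR-320-3p and the lowest for miR-484. These correlations include the difference between the groups and are a description only, since miRNAs of the same libraries share their totals and their GC trend.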

How the data were processed

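Small RNA from 6 libraries of mouse cortical OPCs was sequenced. As deposited by the authors, the RPM values, called TPM, were made by filtering reads with the fastx toolkit, trimming with cutadapt 1.15, removing duplicates, mapping with Bowtie 1.1.2 and counting with miRDeep2. The paper names GRCm39 and the labels name mm10. The authors tested with edgeR 3.12.1.

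Whole reads were recovered by dividing by the step of each library (99.8% to 100% of values above 0 within 0.1 of a whole number). log2(TPM + 1) was fitted with limma 3.58.1 (trend, R 4.3.3) for 607 miRNAs, without pairing. edgeR 4.0.16 and DESeq2 1.42.0 were run on the recovered reads. The limma fit and both count tools were tested on simulated data. Errors of levels are SDs. The members, lists and tests were chosen with earlier results of these data known. The miRNAs named were all members, the other arms of their precursors, other mirtrons by intron position, miR-1839 and miR-1983. Any miRNA with a shared seed was also named (miR-3102-5p, with the seed of miR-702-5p, was the only one). So were the 3 most alike for each member of at least 10 TPM. Alternatives were other pseudocounts, filters, scalings and tools, a replicate block, a GC correction and leaving out each library.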

Additional observations from a re-analysis of the deposited data

How the results depend on the processing

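The log2 fold changes of miR-320-3p, miR-484, miR-877-5p and miR-1224-5p stayed above 0 in 18, 20, 18 and 19 alternatives, of which 1, 0, 0 and 2 passed at an adjusted p under 0.05. With 1 library left out in turn, miR-320-3p ran from 0.75 (without control library 1) to 1.23 and miR-1224-5p from 0.62 (without control library 2) to 1.57, and of these fits only the one without control library 3 passed, for both. Over all alternatives miR-484 ran from 0.38 (quantile normalization) to 0.69, and miR-877-5p from 0.19 (pseudocount 5) to 1.18 (pseudocount 0.1). DESeq2 gave 0.82 for miR-320-3p (adjusted p = 0.0545). The median of all miRNAs, 0.125, was 0.00317 after median-of-ratios scaling, where the log2 fold changes were 0.83, 0.49, 0.52 and 0.94. Of the 607 miRNAs tested, 13 were higher and 4 lower. On the same 607, DESeq2 gave 27 and 37, edgeR's exact test 12 and 10, and its quasi-likelihood test 8 and 4. Other fits tested other numbers of miRNAs, so their counts are not directly comparable. The fit with no filter gave 8 and 3 of 1410, and that at a minimum of 10 TPM 7 and 3 of 371. That of known miRNAs only gave 9 and 1 of 514, and the GC correction 14 and 2 of 417. The fit without control library 3 gave 39 and 4 of 596. Without fibrinogen-treated library 1, 2 or 3, limma called 0, 1 and 1 higher (82, 87 and 60 at an unadjusted p under 0.05) and 3, 4 and 6 lower. Without control library 1 or 2 it called 6 and 4 higher and 0 lower in both (40 and 24 at an unadjusted p under 0.05).

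Libraries with the same number had correlated deviations of 0.038, 0.233 and 0.124, and those with different numbers -0.195 to 0.088. Every library but control library 1 correlated best with its own number, which is a hint of pairing from the data, not from the design. The sources do not say whether a number marks a shared animal, and the libraries were not treated as paired. With the replicate number as a block, log2 fold changes were the same and no member passed (adjusted p = 0.0674 for miR-320-3p, 0.114 for miR-484, 0.208 for miR-877-5p and 0.1 for miR-1224-5p). With the block and the GC correction together miR-1224-5p passed, at 0.85 (adjusted p = 0.0205). In that fit 44 of the 417 miRNAs tested were higher and 10 lower. The GC correction gave no value for miR-320-3p, a minimum of 10 TPM none for miR-877-5p and miR-1224-5p, and DESeq2 no adjusted p for miR-877-5p. The alternatives for arm ratios were not run, as no member had both arms past the minimum level. Depth limits miR-702-3p and miR-877-3p, with 13 and 66 reads in all.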
